A study of Homo sapiens with 6 samples.

Results

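The genes described here encode the laminin chains, the integrin subunits, the basement membrane linkers NID1, NID2, HSPG2 and AGRN, and dystroglycan (DAG1). They were chosen by symbol, as every gene named for a laminin chain, an integrin alpha subunit or an integrin beta subunit plus those 5 single genes. This gave 42 genes: 12 laminin chains, 17 integrin alpha subunits, 8 integrin beta subunits, 4 linkers and DAG1. Reads were found for 41 of them, and 32 of the 42 had enough reads to be among the 15984 genes tested. The series compared ventral midbrain astrocytes (VM iAst), labelled as having ventral midbrain character, with control astrocytes (Control iAst), labelled as forebrain. Both groups were made from H1, an established line of human embryonic stem cells, and no genetic change or agent separates the groups in the labels. Each group had 3 libraries, numbered 2, 3 and 4, of 3′ ends of polyadenylated RNA. Whether the 3 libraries of a group were grown as separate cultures is not in the labels, and the p-values therefore cover the spread between these samples, which may be technical.

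A laminin is a trimer of 1 alpha, 1 beta and 1 gamma chain, which assembles inside the cell and polymerises into a sheet at the cell surface. Nidogens, perlecan (HSPG2) and agrin tie this sheet to the collagen IV network and to cells. Integrins, each a dimer of an alpha and a beta subunit, and dystroglycan are the receptors that hold cells on it. In the brain, astrocyte endfeet rest on the basement membrane around blood vessels and under the pia, and dystroglycan anchors the aquaporin-4 channel complex there.

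The libraries held 15391082, 12477947 and 13506682 estimated reads in VM iAst and 14574520, 11617935 and 14211353 in control iAst. Of all 15984 tested genes, 169 were higher (1.06%) and 175 lower (1.09%) in VM iAst at an adjusted p under 0.05 (edgeR quasi-likelihood test, Benjamini-Hochberg), together 2.15%. The median log2 fold change of all tested genes was 0.01. Levels are given as counts per 1000000 reads (CPM), with no division by transcript length, since a 3′ end read is made about once per transcript. Where levels of different genes are set side by side, the authors' length-scaled unit, TPM, is given too.

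LAMA4, a laminin alpha chain, was lower in VM iAst than in control iAst and was the single gene of the set past the test. It was 59.5 ± 3.39 CPM in VM iAst and 130 ± 10.7 CPM in control iAst (SD, n = 3 each). The levels of LAMB1 and LAMC1 did not overlap between the groups, but neither passed the adjusted threshold. The integrin subunits, the linkers and dystroglycan had no member past it. These results are from the main fit, which does not use the replicate number. With that number as a block, 7 genes of the set were called, LAMB1, LAMC1 and 4 integrin subunits among them. In bulk RNA, fewer cells of a type and less RNA per cell cannot be told apart, and this holds for every difference below.

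Of the 32 tested genes, 1 was called lower and 0 higher by edgeR's quasi-likelihood test with Benjamini-Hochberg adjustment over all genes. That is 3.12% of them, against 2.15% of all tested genes (1.06% higher, 1.09% lower). DESeq2 called 2 of the 32, LAMA4 and LAMB1, both lower, against 4.67% of all genes (2.12% higher, 2.55% lower). With limma voom LAMA4 was called, lower, against 1.64% of all genes (0.795% higher, 0.845% lower). Before adjustment, 6 of the 32 genes (18.8%) had a p under 0.05 in edgeR, 2 higher and 4 lower, against 12% of all genes (5.79% higher, 6.22% lower). The groups did not overlap for 5 of the 32 genes (15.6%), 2 of them higher and 3 lower, against 17.9% of all genes (9.17% higher, 8.75% lower). The 32 log2 fold changes were split evenly, 16 positive and 16 negative, with a median of 0.03. Libraries with the same number deviated together across genes, and a fit with the replicate number as a block called 7 of the 32 genes (21.9%), against 8.13% of all genes (3.63% higher, 4.50% lower). These were LAMA4, LAMB1, LAMC1, ITGA5 and ITGA7, lower in VM iAst, and ITGB8 and ITGA8, higher in VM iAst. Apart from LAMA4, none of these was called in the edgeR fit without the block, and both adjusted p-values are given for each. Among the other settings without the block, LAMB1, LAMC1 and ITGB8 were called when no filter on low counts was used, and ITGA5, ITGA7 and ITGA8 in none.

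**Figure D1:**
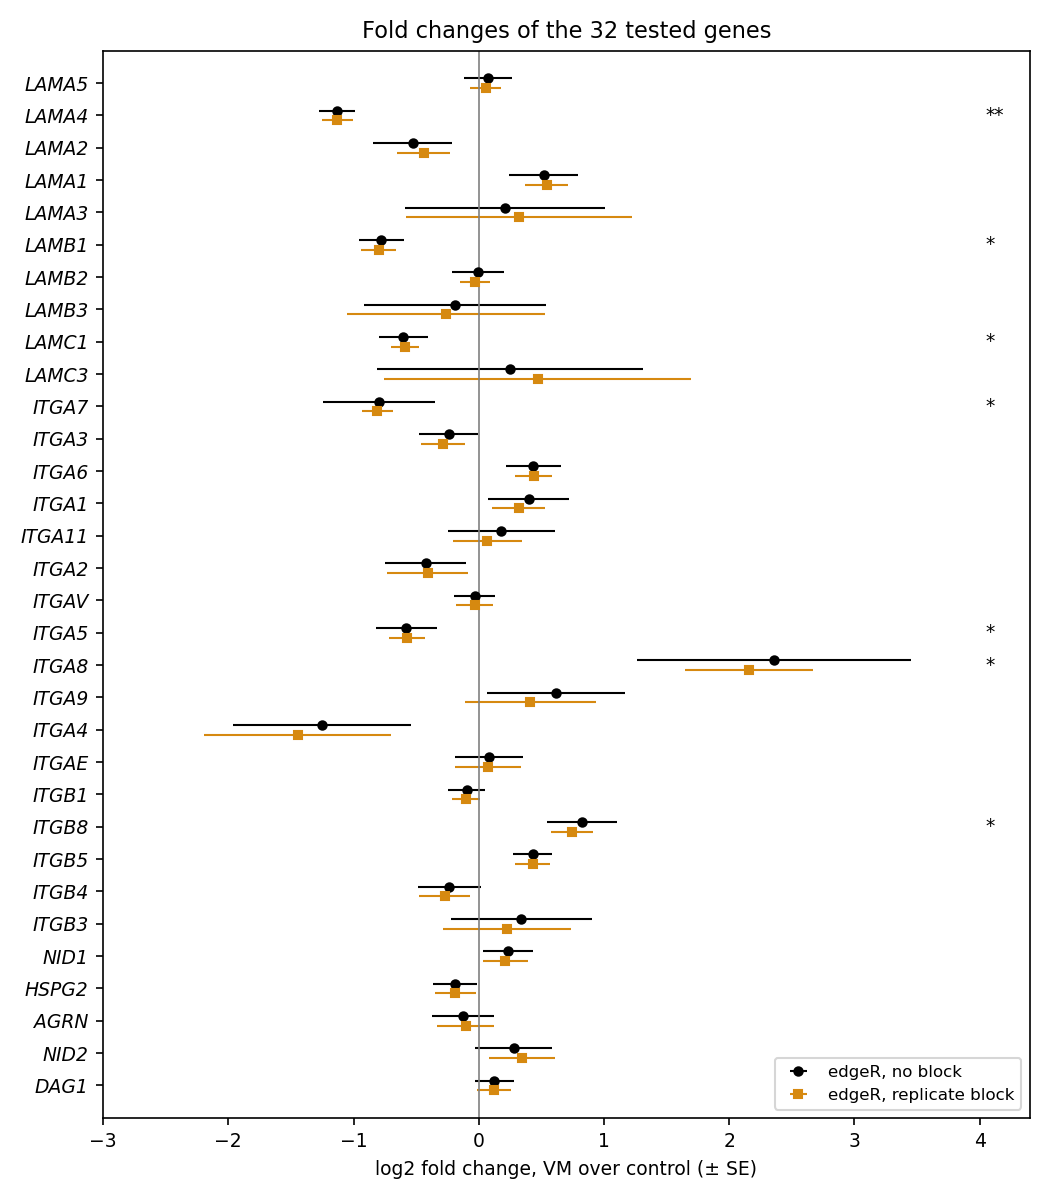
Log2 fold change of VM iAst over control iAst (x axis) for the tested genes, grouped by family, with bars of 1 SE. Black circles are the fit without the replicate block and orange squares the fit with it. The double asterisk marks LAMA4, at -1.13 without the block, which is called in both fits, and single asterisks mark the 6 genes called in the fit with the block and not in the one without it.

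LAMA4 (chromosome 6, 112108760 to 112254939, GRCh38) encodes the laminin alpha chain known from the basement membranes of blood vessels, muscle and peripheral nerve. It had 63.0, 59.4 and 56.2 CPM in VM iAst, against 126, 123 and 143 CPM in control iAst. Every VM library lay below every control library, and the spread within each group was small beside the gap. The log2 fold change was -1.13 ± 0.14 (SE), with an adjusted p of 0.0037 by edgeR with Benjamini-Hochberg adjustment. Within numbers 2, 3 and 4, the ratio of VM to control was 0.501, 0.483 and 0.394. LAMA4 was called in each of the 15 other settings, with an adjusted p of 0.0099 to 0.022 when 1 library was left out (edgeR). Its reads fell mainly on LAMA4-219 and LAMA4-201, whose 3′ ends lie 100 bases apart and which together took 78.2% of the gene's reads in VM iAst and 82.0% in control iAst. The difference was therefore measured mainly at nearly the same 3′ end in both groups. The part of these transcripts was smallest in VM library 3, where LAMA4-219 took 207 and LAMA4-201 took 270 of 757 reads.

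LAMB1 (chromosome 7, 107923799 to 108003255) encodes the beta chain that pairs with LAMC1 in most laminins of the embryo. It had 128, 200 and 156 CPM in VM iAst, against 276, 263 and 292 CPM in control iAst. The groups did not overlap, although VM library 3 lay nearest to the control libraries. The log2 fold change was -0.78 ± 0.18 (SE), with an adjusted p of 0.056 by edgeR without the block and 0.0027 with it. By DESeq2 the adjusted p was 0.0031. Leaving out VM library 3 gave an adjusted p of 0.024 in edgeR, and leaving out single other libraries gave up to 0.20. DLD, which encodes a subunit of mitochondrial enzyme complexes, overlaps LAMB1 on the opposite strand and had 17.7% as many reads, and its log2 fold change was -0.06 (adjusted p = 0.94, edgeR).

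LAMC1 (chromosome 1, 183023460 to 183145592) encodes the gamma chain shared by nearly all laminins. It had 391, 417 and 310 CPM in VM iAst, against 654, 607 and 435 CPM in control iAst. The lowest control library, number 4, was just above the highest VM library, number 3, so the groups did not overlap. The log2 fold change was -0.60 ± 0.19 (SE), with an adjusted p of 0.19 by edgeR without the block and 0.0039 with it. Number 4 was the lowest library of both groups, and within the 3 numbers the ratios of VM to control were 0.597, 0.688 and 0.712.

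The windows from 250 bases before to 50 bases after the annotated start of these 3 genes are shown because these are the laminin chains that were lower in all 3 VM libraries. They are from RefSeq (GRCh38.p14), 5′ to 3′ on the gene's strand, with GC boxes (GGGCGG, or CCGCCC on the other strand) in capitals. LAMA4 is chr6:112254518-112254817 on the minus strand, LAMB1 is chr7:108003112-108003411 on the minus strand and LAMC1 is chr1:183023170-183023469 on the plus strand.
LAMA4: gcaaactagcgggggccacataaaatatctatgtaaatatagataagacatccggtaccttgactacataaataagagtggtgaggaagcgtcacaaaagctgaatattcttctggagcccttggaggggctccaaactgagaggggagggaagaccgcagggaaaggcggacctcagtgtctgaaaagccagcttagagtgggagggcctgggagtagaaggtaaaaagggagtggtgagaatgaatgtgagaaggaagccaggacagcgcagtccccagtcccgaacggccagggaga
LAMB1: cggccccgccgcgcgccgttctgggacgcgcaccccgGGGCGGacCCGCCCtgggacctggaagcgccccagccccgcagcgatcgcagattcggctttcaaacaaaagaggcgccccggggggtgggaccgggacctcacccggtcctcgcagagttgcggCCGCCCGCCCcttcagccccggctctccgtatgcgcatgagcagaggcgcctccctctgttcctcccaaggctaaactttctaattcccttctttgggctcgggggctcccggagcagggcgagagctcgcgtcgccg
LAMC1: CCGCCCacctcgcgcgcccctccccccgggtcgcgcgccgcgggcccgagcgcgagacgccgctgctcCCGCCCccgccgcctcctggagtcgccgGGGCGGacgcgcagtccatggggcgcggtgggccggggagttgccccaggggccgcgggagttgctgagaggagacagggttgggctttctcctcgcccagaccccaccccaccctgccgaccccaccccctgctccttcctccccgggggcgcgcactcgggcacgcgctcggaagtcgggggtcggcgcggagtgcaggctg
The LAMA4 window has a GC content of 51.3% and no GC box. The LAMB1 window has a GC content of 71% with 4 GC boxes, some of them overlapping, and the LAMC1 window has 79% with 3. A GC box on either strand was found in 44.9% of 35116 promoter windows of that length, and in 18 of the 30 genes of this set that have one in the table. CCAAT (34.6% of all windows), TATAAA (11.5%), TGANTCA (7.71%), CANNTG (68.7%) and GTCTAGAC (0.202%), searched on both strands, were absent from all 3 windows. A match, or its absence, describes these letters in these windows and nothing about a factor.

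**Figure D2:**
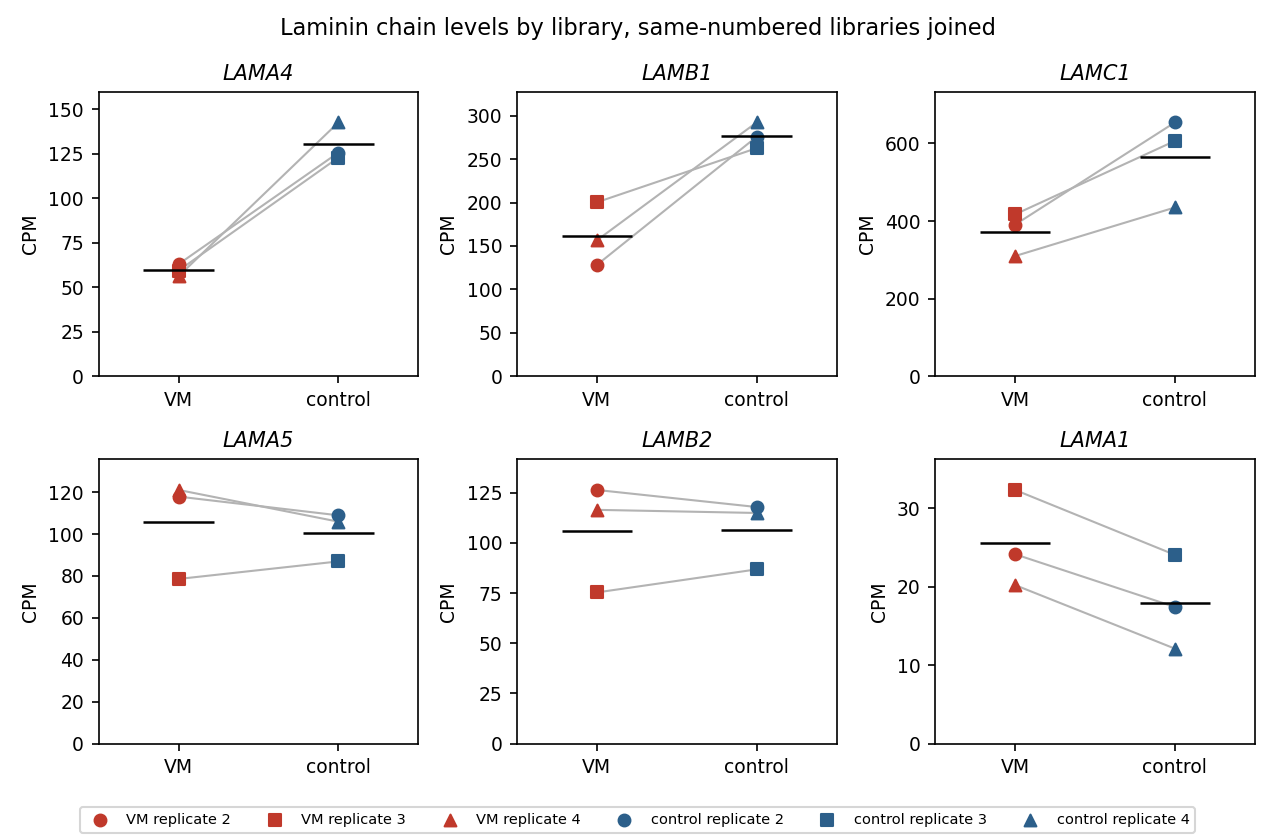
CPM (y axis, from 0) for 6 laminin chains in each library, VM iAst left of control iAst, with same-numbered libraries joined by grey lines and a black bar at each group's mean. LAMA4 is 56.2 to 63.0 CPM in VM iAst and 123 to 143 CPM in control iAst, while LAMA5 and LAMB2 overlap between the groups.

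The other abundant chains overlapped between the groups. LAMA5, an alpha chain of epithelial and vascular basement membranes, had 118, 78.6 and 121 CPM in VM iAst, against 109, 86.9 and 106 CPM in control iAst (log2 fold change 0.07 ± 0.19 SE, adjusted p = 0.94, edgeR). ADRM1 overlaps LAMA5 on the opposite strand and had 59.3% as many reads. LAMB2, the beta chain of mature muscle and kidney laminins, had 126, 75.3 and 117 CPM in VM iAst, against 118, 86.8 and 115 CPM in control iAst. Both genes were lowest in library 3 of either group. LAMA1, the first alpha chain of the embryo and one made by meningeal cells, had 24.1, 32.3 and 20.2 CPM in VM iAst, against 17.4, 24.0 and 12.1 CPM in control iAst. It was 1.39, 1.34 and 1.67 times as high in VM iAst within the 3 numbers, but the groups overlapped and the adjusted p was 0.53 by edgeR without the block and 0.081 with it. LAMA2, the alpha chain of muscle and of astrocyte basement membranes, had 21.2, 16.1 and 18.5 CPM in VM iAst, against 41.8, 21.1 and 17.5 CPM in control iAst (adjusted p = 0.59, edgeR). Control library 2 was the high one, and the other values of LAMA2 overlapped. LAMA3, LAMB3 and LAMC3, of which the first and second belong to the laminin of skin, stayed at or below 2.27 CPM in every library.

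The make-up of the laminin alpha chains differed between the groups, as a description with no test. LAMA4 was 28.5% ± 2.98 of the summed alpha chain CPM in VM iAst and 47.3% ± 4.23 in control iAst (SD, n = 3 each). Per library this share was 27.8%, 31.7% and 25.9% in VM iAst, against 42.7%, 48.1% and 51.1% in control iAst. LAMA5 was 49.9% ± 7.11 in VM iAst and 36.3% ± 2.05 in control iAst, so the leading alpha chain by CPM was LAMA5 in VM iAst and LAMA4 in control iAst. By TPM, LAMA5 led in both groups, and LAMA4 was 15.7% of the alpha chains in VM iAst and 31.8% in control iAst. LAMB1 was 59.8% ± 11.2 of the beta chain CPM in VM iAst and 72.0% ± 2.50 in control iAst, and its share in VM library 3, 72.1%, was within the control range. By TPM, LAMB2 exceeded LAMB1 in both groups. These TPM shares depend on the lengths of the transcripts that took the reads. For LAMA5, LAMB1 and LAMB2 these were mainly transcripts annotated as retained introns or processed transcripts, and for LAMA4 mainly protein-coding ones. The TPM order of the chains is therefore uncertain. LAMC1 was 99.6% of the gamma chain CPM in VM iAst and 99.8% in control iAst. Summed over all 12 chains, laminin CPM was 875, 883 and 802 in VM iAst, against 1344, 1215 and 1124 in control iAst, with no overlap. Most of this difference is LAMC1 (373 CPM in VM iAst, 565 CPM in control iAst), LAMB1 (162 and 277 CPM) and LAMA4. Of these only LAMA4 passed the test in the fit without the block, and all 3 were called with it. Among the 10 tested chains, 4 log2 fold changes were positive and 6 negative.

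**Figure D3:**
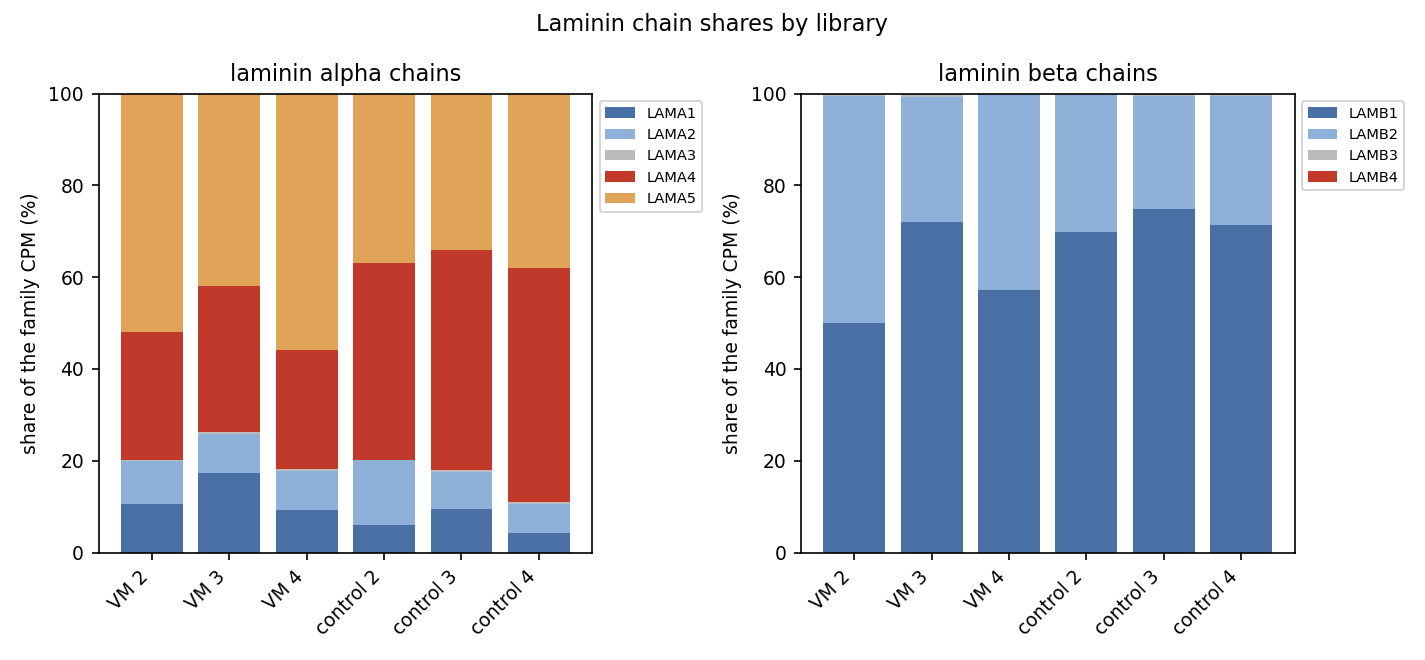
Stacked share (percent) of each chain in the summed CPM of the laminin alpha chains (left panel) and beta chains (right panel) for each library, VM iAst left of control iAst. LAMA4 takes 25.9% to 31.7% of the alpha chains in VM iAst and 42.7% to 51.1% in control iAst.

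Among the 12 tested integrin alpha subunits, 0 were called by edgeR's quasi-likelihood test with Benjamini-Hochberg adjustment, 0 by DESeq2 and 0 by limma voom, and 1 had an unadjusted p under 0.05. With the replicate block 3 were called, 1 higher and 2 lower. Of all tested genes, 8.13% were called with the block and 12% had an unadjusted p under 0.05.

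ITGA3, ITGA6 and ITGA7 are the subunits that pair with ITGB1 as laminin receptors. ITGA7 (chromosome 12, 55684568 to 55716043), best known from muscle, had 33.2, 38.0 and 78.6 CPM in VM iAst, against 57.0, 72.3 and 131 CPM in control iAst. The groups overlapped because number 4 was the highest library of both. Within the numbers the ratio of VM to control was 0.583, 0.526 and 0.602, and the adjusted p was 0.59 by edgeR without the block and 0.00084 with it. BLOC1S1, a gene on the opposite strand, overlaps ITGA7 and had 37.9% as many reads (log2 fold change -0.29, adjusted p = 0.63, edgeR). ITGA6 had 39.4, 60.5 and 52.8 CPM in VM iAst, against 29.0, 36.7 and 47.2 CPM in control iAst. It was higher in VM iAst within each number, while the groups overlapped, with an adjusted p of 0.49 by edgeR without the block and 0.094 with it. ITGA3 had 30.2, 58.8 and 40.9 CPM in VM iAst, against 46.1, 47.8 and 59.5 CPM in control iAst, overlapping (adjusted p = 0.79, edgeR). By CPM, ITGA7 was the highest alpha subunit on average in control iAst, at 86.7 ± 38.9 CPM, and its mean in VM iAst was 50.0 ± 24.9 CPM (SD, n = 3 each). By TPM, ITGA3 was the highest in both groups, at 51.3% of the alpha subunits in VM iAst and 52.3% in control iAst. In VM library 2, ITGA3 had 35.8 TPM on 465 reads and ITGA6 had 3.07 TPM on 606 reads. The TPM order depends on the lengths of the transcripts that took the reads and is uncertain, as for the laminins.

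**Figure D4:**
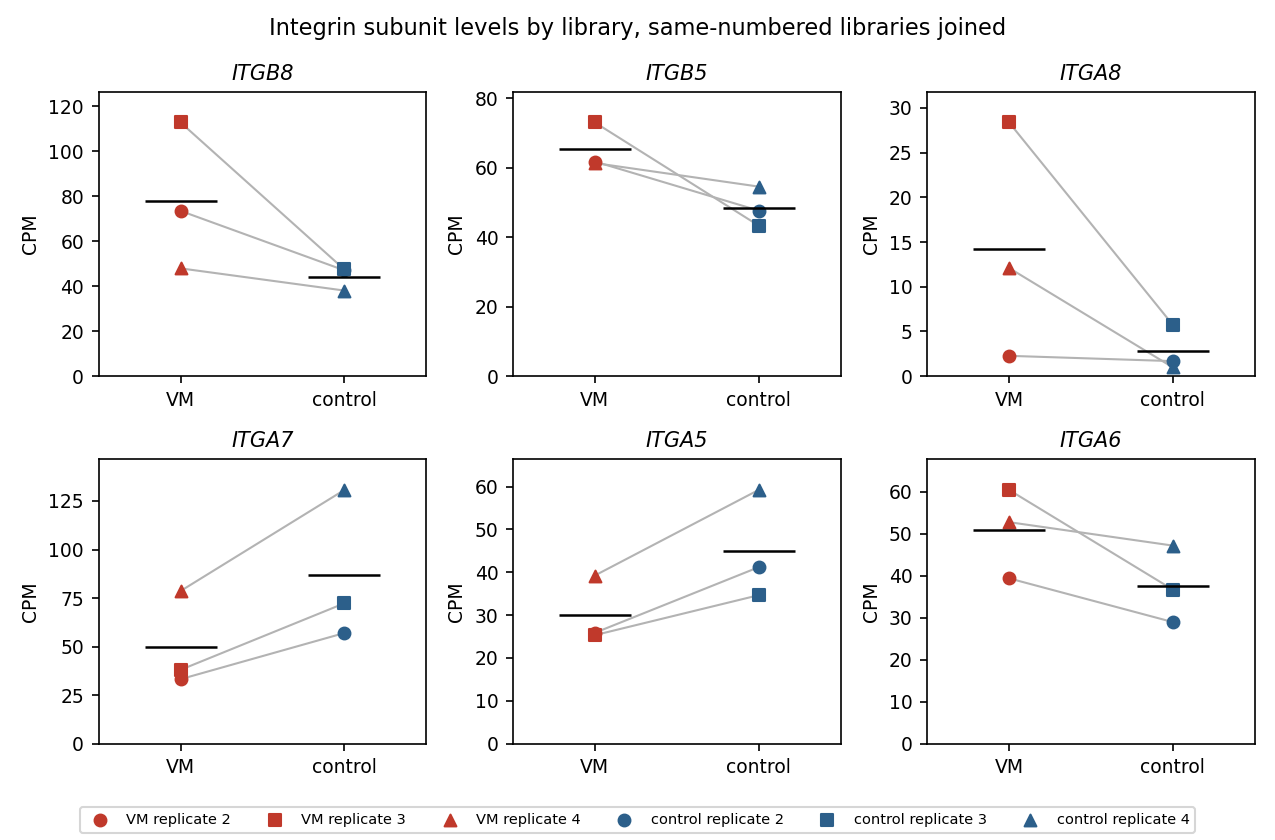
CPM (y axis, from 0) of 6 integrin subunits in each library, VM iAst left of control iAst, with same-numbered libraries joined by grey lines and a black bar at each group's mean. The groups do not overlap for ITGB5 and ITGB8, and ITGA8 spreads from 2.28 to 28.4 CPM in VM iAst alone.

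ITGA5, ITGA8 and ITGAV belong to the integrins that bind the RGD motif of fibronectin, nephronectin and latent TGF-beta. ITGA5 (chromosome 12, 54395261 to 54419460), the fibronectin receptor subunit, had 25.9, 25.3 and 39.2 CPM in VM iAst, against 41.2, 34.7 and 59.2 CPM in control iAst. Library 4 was again the highest of both groups, VM library 4 lay above control library 3, and the ratios within numbers were 0.628, 0.731 and 0.663. Its log2 fold change was -0.58 ± 0.24 (SE), with an adjusted p of 0.37 by edgeR without the block and 0.023 with it. ITGA8 (chromosome 10, 15513949 to 15720125), which binds nephronectin in the developing kidney, had 2.28, 28.4 and 12.1 CPM in VM iAst, against 1.68, 5.73 and 0.983 CPM in control iAst. The VM libraries themselves differed more than 10-fold, and VM library 2 lay below control library 3. Its log2 fold change was 2.36 ± 1.09 (SE), with an adjusted p of 0.50 by edgeR without the block and 0.034 with it, on 13 to 362 reads per library. Without VM library 3 the log2 fold change was 1.37, and without control library 3 it was 3.40 (adjusted p = 0.76 and 0.34, edgeR). From the deposited normalized values it was 1.51. ITGAV, the subunit shared by several RGD receptors, had 35.7, 42.9 and 40.0 CPM in VM iAst, against 39.4, 35.9 and 46.0 CPM in control iAst, and did not separate the groups (adjusted p = 0.97, edgeR).

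The collagen-binding subunits ITGA1, ITGA2 and ITGA11 overlapped between the groups, with adjusted p-values of 0.71 or more in edgeR. ITGA1 had 13.1, 28.3 and 12.9 CPM in VM iAst, against 12.3, 16.8 and 12.1 CPM in control iAst. Its level is uncertain, because PELO lies within it on the same strand and had 72.6% as many reads, and in the authors' table its level was 1.82 times as high after scaling. ITGA4 and ITGA9, subunits known as receptors for fibronectin, VCAM1 and tenascin, stayed at or below 6.19 CPM in every library, and ITGAE, known from lymphocytes in epithelia, at or below 13.9 CPM. The level of ITGA9 is uncertain, because ITGA9-AS1 overlaps it on the opposite strand and had 101.5% as many reads.

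Among the 5 tested integrin beta subunits, 0 were called by edgeR's quasi-likelihood test with Benjamini-Hochberg adjustment, 0 by DESeq2 and 0 by limma voom, and 2 had an unadjusted p under 0.05. The block added 1 call. The shares over all tested genes were 12% for an unadjusted p under 0.05 and 8.13% for a call with the block. ITGB1 (chromosome 10, 32900319 to 33005792), the partner of most alpha subunits here, was by far the highest integrin by CPM. It had 644, 752 and 658 CPM in VM iAst, against 725, 696 and 777 CPM in control iAst, and the groups overlapped (log2 fold change -0.10 ± 0.15 SE, adjusted p = 0.89, edgeR). Its share of the beta subunit CPM was 79.0% ± 1.57 in VM iAst and 84.3% ± 1.42 in control iAst (SD, n = 3 each). By TPM these shares were 77.2% and 78.8%, closer to each other.

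ITGB8 (chromosome 7, 20330702 to 20415754) pairs with ITGAV and, in mice, activates latent TGF-beta on neural cells around brain vessels. It had 73.5, 113 and 47.9 CPM in VM iAst, against 47.0, 47.4 and 38.0 CPM in control iAst. No library overlapped, but VM library 4 was within 1 CPM of 2 of the control libraries. The log2 fold change was 0.82 ± 0.28 (SE), with an adjusted p of 0.24 by edgeR without the block and 0.013 with it. The ratios within numbers were 1.56, 2.38 and 1.26, the highest in number 3, and without VM library 3 the log2 fold change was 0.46 (adjusted p = 0.53, edgeR). ITGB5, another partner of ITGAV and a vitronectin receptor subunit, had 61.8, 73.1 and 61.4 CPM in VM iAst, against 47.7, 43.4 and 54.6 CPM in control iAst. All VM libraries were above all control libraries, with a log2 fold change of 0.43 ± 0.16 (SE) and an adjusted p of 0.27 by edgeR without the block and 0.087 with it. ITGB4, which pairs with ITGA6 in hemidesmosomes, and ITGB3, known from platelets and bone, overlapped between the groups (adjusted p = 0.82 and 0.90, edgeR). GALK1 overlaps ITGB4 on the opposite strand and had 44.0% as many reads.

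The 4 linkers and dystroglycan did not separate the groups. None of these 5 genes was called by edgeR with Benjamini-Hochberg adjustment, by DESeq2, by limma voom or with the block, and 0 had an unadjusted p under 0.05. NID1, which bridges laminin gamma 1 to collagen IV, had 25.5, 39.1 and 34.7 CPM in VM iAst, against 30.9, 27.6 and 26.1 CPM in control iAst (log2 fold change 0.23 ± 0.20 SE, adjusted p = 0.75, edgeR). HSPG2, the heparan sulfate proteoglycan perlecan, had 28.2, 26.0 and 31.5 CPM in VM iAst, against 34.7, 34.3 and 28.7 CPM in control iAst, with an overlap of 1 library from each side. AGRN, which binds laminin and dystroglycan and whose low count is uncertain because an annotated transcript within it on the same strand took more reads, had 13.5, 13.8 and 17.5 CPM in VM iAst, against 15.1, 21.2 and 12.6 CPM in control iAst. DAG1 had 68.0, 61.5 and 56.2 CPM in VM iAst, against 50.7, 63.0 and 56.9 CPM in control iAst (log2 fold change 0.12 ± 0.16 SE, adjusted p = 0.85, edgeR). NID2, the second nidogen, was between 5.73 and 13.5 CPM over all 6 libraries, and RTRAF, which overlaps it on the opposite strand, took more reads than it did.

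**Figure D5:**
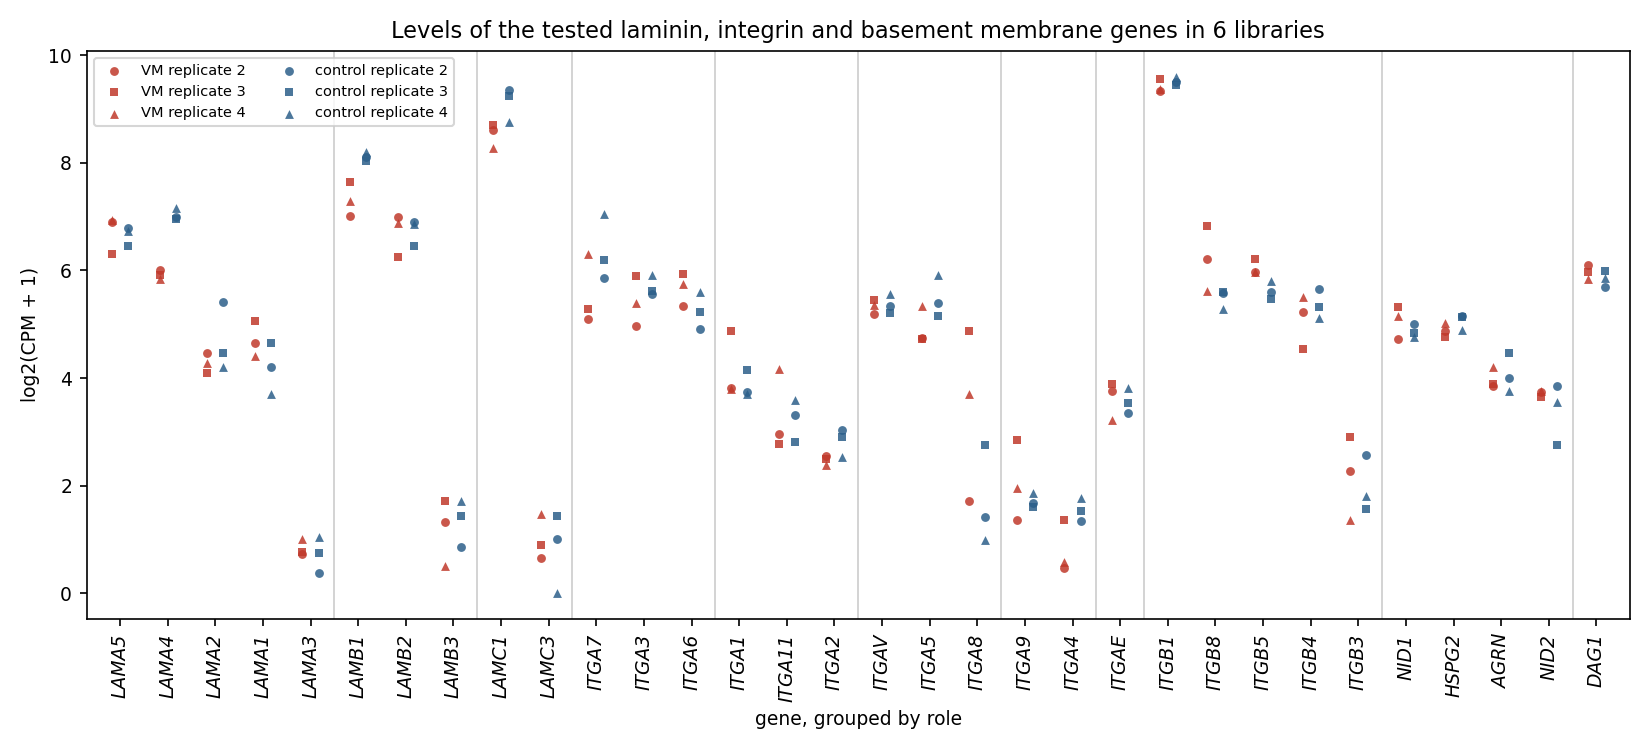
Level of each of the 32 tested genes as log2(CPM + 1) in each library, grouped by role, with VM iAst in red left of control iAst in blue and a symbol for each replicate number. ITGB1 is the highest, at a mean of 685 CPM in VM iAst and 733 CPM in control iAst.

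By mean CPM over all 6 libraries, 5 genes of the set were at 100 or more, 18 between 10 and 100, 7 between 1 and 10 and 12 under 1. The 10 genes that were not tested included LAMB4, ITGA2B, ITGA10, ITGAL, ITGAM, ITGAX, ITGB2, ITGB6 and ITGB7. None of the 10 had more than 11 reads in a library. ITGB6, an epithelial subunit, had 0 reads in all 6 libraries, and a count of 0 allows up to 3 reads, or 0.195 to 0.258 counts per 1000000 reads, depending on the library. ITGAL, ITGAM, ITGAX, ITGB2 and ITGB7 are leukocyte subunits, and ITGA2B is the platelet subunit. LAMB4 lies 20292 bases from the well-read LAMB1, with no protein-coding gene between them in the annotation.

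The other genes of the pathway were counted in 6 lists of 131 genes outside the set, of which 122 were tested. Of these, 4 were higher and 6 lower in VM iAst (8.20%, against 2.15% of all tested genes), by edgeR with Benjamini-Hochberg adjustment. The block called 30 of the 122 (24.6%), against 8.13% of all genes. The lists were chosen with earlier results of these data known, so these shares are not a test of the pathway. The median log2 fold change of the 122 was -0.05.

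Among 25 tested components of the basement membrane other than the set, 1 was higher and 0 lower (2.15% of all tested genes were called). FRAS1, a protein of the embryonic basement membrane under epithelia, had 27.6, 22.1 and 19.1 CPM in VM iAst, against 9.95, 10.3 and 9.23 CPM in control iAst (log2 fold change 1.23 ± 0.22 SE, adjusted p = 0.018, edgeR). Every VM library was above every control library. Leaving out VM library 2, control library 2 or control library 4 ended the call, with adjusted p-values of 0.061 to 0.089 (edgeR). COL4A1, a chain of the collagen IV network, averaged 141 CPM in VM iAst and 81.7 CPM in control iAst (adjusted p = 0.081 by edgeR without the block and 0.0067 with it). EGFLAM, or pikachurin, a dystroglycan ligand of the retina, averaged 0.799 CPM in VM iAst and 3.23 CPM in control iAst, and HMCN1, hemicentin, 8.51 CPM in VM iAst and 4.44 CPM in control iAst (adjusted p = 0.12 and 0.18, edgeR). SPARC, a collagen IV binder and the highest gene of the list by CPM, overlapped between the groups, at 917 CPM in VM iAst and 998 CPM in control iAst. The block called 3 genes of the list higher and 3 lower, against 8.13% of all tested genes (3.63% higher, 4.50% lower).

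Among 26 tested integrin ligands, 1 was higher and 5 lower, against 2.15% of all tested genes called (1.06% higher, 1.09% lower). THBS2, a thrombospondin that astrocytes secrete, averaged 51.1 CPM in VM iAst and 11.6 CPM in control iAst (log2 fold change 2.14 ± 0.20 SE, adjusted p = 0.00066, edgeR). TNR, tenascin-R of perineuronal nets, had 11.8, 3.61 and 9.95 CPM in VM iAst, against 78.9, 46.4 and 95.7 CPM in control iAst. The groups did not overlap (log2 fold change -3.11 ± 0.48 SE, adjusted p = 0.029, edgeR). Leaving out VM library 2 or 4, or control library 2 or 4, ended the call, with adjusted p-values of 0.070 to 0.11 (edgeR). FBN2, a microfibril protein, averaged 81.9 CPM in VM iAst and 154 CPM in control iAst (adjusted p = 0.019, edgeR), and its call was lost without VM library 2 or 4 or control library 2 or 3 (adjusted p = 0.051 to 0.088). COL1A1, the main chain of fibrillar collagen I, averaged 277 CPM in VM iAst and 910 CPM in control iAst (adjusted p = 0.0037, edgeR). Also lower were COL3A1 and TGFB2 (adjusted p = 0.038 and 0.048, edgeR), which are named here after their values were seen. Neither was called by limma voom (adjusted p = 0.074 and 0.057). COL3A1 lost its call without any single VM library or control library 4 (adjusted p = 0.12 to 0.15, edgeR), and TGFB2 without any single library but control library 3 (adjusted p = 0.084 to 0.17, edgeR). FN1, fibronectin and the ligand of ITGA5, averaged 2121 CPM in VM iAst and 1957 CPM in control iAst (adjusted p = 0.93, edgeR). The block called 2 ligands higher and 8 lower, against 8.13% of all tested genes (3.63% higher, 4.50% lower).

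Of the 31 tested proteins that link integrins to actin inside the cell, 1 was lower and 0 were higher (2.15% of all tested genes were called). ACTN4, an actin crosslinker, had 625, 416 and 546 CPM in VM iAst, against 1217, 856 and 1032 CPM in control iAst, without overlap. Its log2 fold change was -0.97 ± 0.20 (SE, adjusted p = 0.034, edgeR), and the call was lost without any single library but control library 3, with adjusted p-values of 0.056 to 0.14. CAV1, caveolin, averaged 84.0 CPM in VM iAst and 159 CPM in control iAst (adjusted p = 0.063 by edgeR without the block and 0.00025 with it). KANK2, a talin-binding protein, averaged 51.4 CPM in VM iAst and 72.2 CPM in control iAst, and PXN, the focal adhesion scaffold paxillin, 74.3 CPM in VM iAst and 58.6 CPM in control iAst (adjusted p = 0.17 and 0.35, edgeR). With the block KANK2 was called (adjusted p = 0.026) and PXN was not. The list then had 0 higher and 3 lower (8.13% of all tested genes were called).

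Of the 13 tested membrane partners of integrins, 0 were called by edgeR, DESeq2 or limma voom, 5 had an unadjusted p under 0.05 (12% of all tested genes did), and 7 were called with the block, 1 higher and 6 lower (8.13% of all tested genes were). Their median log2 fold change was -0.33, against 0.01 for all tested genes. CD151, the tetraspanin that binds the laminin-binding integrins, averaged 163 CPM in VM iAst and 250 CPM in control iAst (log2 fold change -0.61 ± 0.19 SE, adjusted p = 0.16 by edgeR without the block and 0.0067 with it). The tetraspanin TSPAN4 averaged 25.9 CPM in VM iAst and 41.3 CPM in control iAst (adjusted p = 0.22 by edgeR without the block and 0.015 with it). CD63, the highest of the list by CPM, averaged 1459 CPM in VM iAst and 2149 CPM in control iAst, and its groups overlapped (adjusted p = 0.35 by edgeR without the block and 0.0097 with it). SLC3A2, the amino acid transporter subunit that binds beta 1 integrin tails, averaged 189 CPM in VM iAst and 139 CPM in control iAst (adjusted p = 0.31 by edgeR without the block and 0.032 with it).

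The dystroglycan complex had 1 gene higher and 0 lower among 12 tested (2.15% of all tested genes were called). AQP4, the water channel of endfeet, had 21.8, 19.4 and 50.4 CPM in VM iAst, against 3.66, 1.71 and 6.20 CPM in control iAst, without overlap (log2 fold change 2.98 ± 0.56 SE, adjusted p = 0.048, edgeR). Leaving out VM library 2 or any control library ended that call, with adjusted p-values of 0.056 to 0.21. SNTB1, a syntrophin, averaged 5.28 CPM in VM iAst and 14.6 CPM in control iAst (adjusted p = 0.24 by edgeR without the block and 0.0031 with it). UTRN, the dystrophin relative utrophin, averaged 91.1 CPM in VM iAst and 120 CPM in control iAst, and SGCD, a sarcoglycan, 4.79 CPM in VM iAst and 9.37 CPM in control iAst (adjusted p = 0.31 and 0.25, edgeR). SNTB2, the highest of the list by CPM, overlapped between the groups, at 168 CPM in VM iAst and 151 CPM in control iAst.

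The genes that build the laminin-binding glycan of dystroglycan, of which 16 were tested, had a median log2 fold change of 0.25, with 13 positive and 3 negative, while DAG1 itself overlapped between the groups. Of the 16, 1 was called higher and 0 lower by edgeR, and with the block 1 higher and 1 lower. Of all tested genes, 2.15% were called without the block and 8.13% with it. B4GAT1, which makes the primer of this glycan, averaged 69.8 CPM in VM iAst and 94.2 CPM in control iAst (adjusted p = 0.29 by edgeR without the block and 0.038 with it). DPM1, which supplies the mannose donor, averaged 28.0 CPM in VM iAst and 20.3 CPM in control iAst, and POMGNT2, which extends the mannose, 24.8 CPM in VM iAst and 33.4 CPM in control iAst (adjusted p = 0.37 and 0.42, edgeR).

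Some lists of markers of other cell types moved with LAMA4, and their part in its difference was not tested. For the counts below, the shares of all tested genes called were 2.15% by edgeR, 8.13% with the block, 4.67% by DESeq2 and 1.64% by limma voom. An unadjusted p under 0.05 was found for 12% of all tested genes (edgeR). The 10 mesenchymal markers, all of them tested and none at 0, summed to 645 to 805 CPM in VM iAst and 1190 to 1853 CPM in control iAst, and 4 of the 10 were called lower (edgeR), COL1A1, COL3A1, PRRX1 and FOXC1. Most of the difference in the sum is COL1A1, with 277 CPM in VM iAst and 910 CPM in control iAst, and COL1A2, with 140.5 CPM in VM iAst and 289 CPM in control iAst. THY1 and PDGFRB overlapped between the groups, and the low-level DCN (1.81 CPM in VM iAst, 0.407 CPM in control iAst) and LUM (2.80 CPM in VM iAst, 0.524 CPM in control iAst) had higher values in all 3 VM libraries, without passing the test (adjusted p = 0.29 and 0.30, edgeR). The 8 endothelial markers, of which 6 were tested, summed to 10.9 to 16.5 CPM in VM iAst and 23.2 to 24.8 CPM in control iAst. The lower sum in VM iAst came from KDR, VWF and EGFL7 (log2 fold change -0.84, -1.16 and -1.52), and of these KDR and VWF overlapped between the groups. PECAM1, CDH5 and TEK also overlapped (log2 fold change -0.12, -0.09 and 0.66), so the list did not move as a whole. None of the 6 was called by edgeR or limma voom and 1 by DESeq2, 3 had an unadjusted p under 0.05, and the block called EGFL7, lower (adjusted p = 0.031, edgeR). Astrocyte markers summed to 1133 to 1891 CPM in VM iAst and 1546 to 1997 CPM in control iAst, with 3 of 10 called higher in VM iAst (AQP4, SLC1A3 and NFIA, edgeR) and none at 0. With the block SOX9, CD44 and GJA1 were also called, lower in VM iAst (adjusted p = 0.030, 0.0045 and 0.0079, edgeR), and the 10 fold changes were 5 positive and 5 negative. SLC1A2 and ALDH1L1 averaged under 3 CPM in both groups. The labels give the source as astrocyte, and GFAP averaged 371 CPM in VM iAst and 362 CPM in control iAst. The 9 neuron markers summed to 691 to 1166 CPM in VM iAst and 1242 to 1973 CPM in control iAst, without overlap. Most of this difference is STMN2, with 449 CPM in VM iAst and 1061 CPM in control iAst. MAP2, TUBB3 and SNAP25 overlapped between the groups (log2 fold change 0.11, 0.03 and 0.04). Of the 8 tested neuron markers, 0 were called by edgeR or limma voom, 3 by DESeq2, and 3 had an unadjusted p under 0.05. With the block 4 of them, DCX, STMN2, NEFL and NEFM, were called lower (adjusted p = 0.0034, 0.0091, 0.030 and 0.0040, edgeR). The 6 Schwann cell and neural crest markers summed to 60.9 to 71.8 CPM in VM iAst and 34.3 to 56.1 CPM in control iAst, the opposite direction to LAMA4, with SOX10 at 0 reads. Sums of the neural progenitor markers, at 4845 to 6076 CPM in VM iAst and 4278 to 4973 CPM in control iAst, and of the epithelial markers, at 41.4 to 87.4 CPM in VM iAst and 76.5 to 128 CPM in control iAst, overlapped. Most of the progenitor sum is VIM, with 4485 CPM in VM iAst and 3609 CPM in control iAst. Of the 8 progenitor markers, 1 was called higher and 1 lower (edgeR). PROM1 was higher (log2 fold change 1.89, adjusted p = 0.0071) and PAX6 lower (-2.16, adjusted p = 0.019). Without 1 library the adjusted p of PAX6 was up to 0.096 (edgeR). The 10 leukocyte and microglia markers summed to at most 4.29 CPM in VM iAst and 7.39 CPM in control iAst, with AIF1 and P2RY12 at 0 reads, beside the near-absent leukocyte integrins.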

How the data were processed

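RNA of H1-derived astrocytes was extracted with TRIzol and made into QuantSeq 3′ mRNA FWD libraries, per the labels. Salmon, DESeq2 1.27.12 and GRCh38.p13 are named per the submitters' processing notes. The authors deposited estimated counts and TPM per transcript with effective lengths, and a table of normalized signal for 21509 genes. The strand setting of the counting was not stated, so overlapping genes on opposite strands are uncertain.

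Estimated counts of 226608 transcripts were summed per gene (GENCODE, 205225 or 90.6% matched; unmatched reads 0.992% to 1.12%) and rounded. edgeR 4.0.16 (filterByExpr, TMM, robust quasi-likelihood) in R 4.3.3 tested VM iAst against control iAst over 15984 genes, with Benjamini-Hochberg adjusted p under 0.05 as the threshold. SE is the absolute log2 fold change over the square root of F, and CPM uses TMM-scaled library sizes. The common biological coefficient of variation was 0.309. Of the 32 tested genes of the set, 29 lay within 1.1 times of the deposited signal after scaling; ITGA4 (1.14), LAMA3 (1.25) and ITGA1 (1.82) did not.

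Deviations from the group mean correlated at 0.234, 0.345 and 0.204 between libraries of the same number and at most 0.0237 between others, so the numbers were taken to pair the libraries, although the labels do not say what they share. The fit without the block is the main one because the labels do not give this pairing, and calls with the block are given beside it.

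The alternatives tried were upper-quartile and RLE scaling, a stricter filter (2 CPM in 3 libraries) and none, a gene-length offset, the replicate block, DESeq2 1.42.0, limma 3.58.1 voom, the deposited signal as log2(value + 1), and leaving out each library. The scripts were tested on simulated data. Genes with reads are named, apart from 2 genes (1 of the set, 1 of the pathway lists) that are not reported here; full values are given for those called in edgeR, the block or DESeq2, those with an unadjusted p under 0.05 and the highest of each family; pathway genes by smallest p and highest level. The members and lists were chosen with earlier results of these data known. Promoter windows came from RefSeq (30 of 42 genes matched). Limits on counts of 0 cover counting error only.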

Additional observations from a re-analysis of the deposited data

How the results depend on the processing

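LAMA4 kept its direction and its call in all 15 alternatives. Across all genes the count of calls, 344, was 1012 without a filter on low counts, 172 with a gene-length offset, 1300 with the replicate block, 747 with DESeq2, 182 from the deposited normalized values and 131 to 258 without 1 library. Of the laminin, integrin and basement membrane genes, 1 was called, against 4 without the filter, 7 with the replicate block, 2 with DESeq2 and 1 to 2 without 1 library. Of the other pathway genes, 10 were called, against 23 without the filter, 4 with the offset, 30 with the replicate block, 17 with DESeq2, 4 from the deposited values and 3 to 9 without 1 library. The cause of these shifts was not tested. Shares by TPM, an alternative chosen after seeing the data, were in VM iAst and control iAst 15.7% and 31.8% for LAMA4, 31.2% and 42.2% for LAMB1, and 77.2% and 78.8% for ITGB1.

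Some genes that were not called changed sign: ITGAV (0.0353 with the offset, 0.0166 from deposited values), ITGA11 (-0.0225 and -0.303), ITGB3 (-0.172 and -0.216) and LAMB2 (0.00145 without the filter, 0.0244 with the offset). Not all of the changes of sign were in genes near 0. ITGA9, ITGA1 and ITGB3 had log2 fold changes of 0.62, 0.40 and 0.34 in the main fit and changed sign without VM library 3. Without 1 library the log2 fold changes ranged over -0.286 to 0.109 for AGRN, -0.0565 to 0.964 for ITGA9, -0.112 to 0.0637 for ITGAV, -0.0744 to 0.594 for ITGA1, -0.458 to 0.448 for ITGA11, -0.0630 to 0.272 for ITGAE and -0.205 to 0.826 for ITGB3. They ranged over -0.150 to 0.326 for LAMA3, -0.0336 to 0.249 for LAMA5, -0.157 to 0.189 for LAMB2, -0.715 to 0.239 for LAMB3, -0.343 to 1.06 for LAMC3, -0.292 to 0.0688 for SPARC and -0.133 to 0.338 for FN1. The replicate block changed no call among the laminin, integrin, linker and dystroglycan genes beyond those given above. In data simulated on 15473 genes, 35% of the 2-fold and 94% of the 4-fold changes were recovered, and smaller changes, such as those of LAMC1 and ITGA5, were not simulated. The changed genes were drawn only from those with a log2 mean CPM of at least 2. The recovery therefore does not cover ITGA4, ITGA9, ITGB3, LAMA3, LAMB3 and LAMC3, which lay below that level. Pairing of same-numbered libraries was not simulated.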
